A study of Macaca fascicularis with 64 samples.

Results

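The genes described here are transcription factors that set or maintain β-cell identity: PDX1, MAFA, NKX6-1, MNX1, SIX2, SIX3 and PAX4. They were taken by symbol from the deposited gene tables. No measured value entered the rule, but the list was drawn up with earlier results of these data known. The authors had already named NKX6-1 and MAFA as β-cell factors from these cells. Of the 7 genes, 6 were listed by symbol among 21041 monkey genes. MNX1 was not analysed here, because 5046 of the listed genes carry only an Ensembl identifier and no table pairs these with names. SIX3 had 10 unique molecular identifiers (UMIs, each counting 1 captured transcript) in all cells together, so that the comparisons rest on PDX1, MAFA, NKX6-1, SIX2 and PAX4.

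These factors act in sequence and in parallel. PDX1, a homeodomain factor, is needed for the pancreas to form and later binds the insulin promoter, whereas MAFA, a basic leucine zipper factor, activates insulin transcription in mature β-cells. NKX6-1, another homeodomain factor, keeps β-cells from taking on the programmes of other islet cells, PAX4, a paired-homeodomain factor, steers endocrine progenitors towards β- and δ-cells, and SIX2 and SIX3 are neighbouring homeobox genes known from maturing human β-cells.

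Single islet cells were sequenced from 16 healthy cynomolgus monkeys (Macaca fascicularis), 8 young and 8 old, none of them treated. Each age group held 4 females and 4 males. Monkeys are named by age and sex, so that YF1 is a young female and OM1 an old male. Cells were picked by mouth pipette from islets of the pancreatic tail, barcoded, pooled into 4 libraries per monkey and counted as UMIs per gene. Tissue was collected over 16 sequential days, and day and monkey cannot be told apart.

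Of 6141 picked cells, 5908 had over 800 genes and over 10000 UMIs, and each was typed by the highest of its hormone transcripts: α-cells by GCG (glucagon), β-cells by INS (insulin), δ-cells by SST (somatostatin) and PP-cells by PPY (pancreatic polypeptide). This gave 4503 α-cells, 1219 β-cells, 112 δ-cells and 74 PP-cells. UMIs of each type were summed per monkey where at least 5 cells were present, which left α- and β-cell sums of 16 monkeys each, δ-cell sums of 11 and PP-cell sums of 6. Levels are given as CPM, the UMIs of a gene in such a sum scaled to a common total, so that fewer cells carrying a transcript and fewer transcripts per cell cannot be told apart from a level alone. Libraries of 1 monkey held 20719761 to 34053080 UMIs in all, and no cell name was shared between libraries. Beside the hormones that set the types, 5 of 7 α-cell, 6 of 7 β-cell, 5 of 5 δ-cell and 4 of 5 PP-cell markers were highest in their own type. Some of these markers, among them TSPAN12, ERO1B, TMEM132B, EHF and UGT2B20, were reported by the authors from these same cells. The counts are therefore no independent check of the typing. Hormone transcripts were found in every type, with mean levels of 22849 CPM GCG in β-cells and 7262 CPM INS in α-cells, and 63 cells held markers of immune, stellate, endothelial or Schwann cells, 151 of acinar and 13 of ductal cells beside a hormone.

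All 5 factors that could be tested were higher in β-cells than in α-cells, by fitted log2 fold changes of 1.95 (NKX6-1) to 5.33 (PDX1), whereas δ-cells held PDX1, SIX2 and PAX4 at levels that did not differ from β-cells past the threshold. The comparison asked which of the factors mark β-cells among the endocrine cells of the same animals. It was fitted by edgeR's quasi-likelihood test on all 49 sums with monkey as a block, with Benjamini-Hochberg adjustment over 12899 genes and a threshold of 0.05. Among all genes tested, 25.0% passed between β- and α-cells in either direction, 8.66% being higher and 16.3% lower in β-cells. The median log2 fold change of the 5 factors was 4.12, beside a median of -0.11 over all genes tested. The filter on low counts was applied to the sums of all types together. PDX1 and PAX4 had too few UMIs to pass it among α-cells alone, so that they entered through the types where they were higher. The count of 5 and the median of 4.12 are therefore not independent of that filter.

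PDX1, the pancreatic master regulator, was measured in β-cells of every monkey at 1.91 CPM in YF3 at the lowest, 7.83 CPM at the median and 24.1 CPM in YF2 at the highest (8.89 ± 6.55, SD, n = 16). In α-cells it ranged from 0 to 0.486 CPM with a median of 0.185 CPM (0.205 ± 0.162, SD, n = 16). Every β-cell sum lay above every α-cell sum, which held for 1.02% of the genes tested. The log2 fold change was 5.33 (SE 0.60, edgeR adjusted p = 4.0e-10). The highest β-cell value rested on few molecules, since all 15 PDX1 UMIs of YF2 came from 1 of its 11 β-cells.

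MAFA, the late activator of insulin transcription, ranged in β-cells from 42.9 CPM in YF3 through a median of 119 CPM to 202 CPM in OM4 (116 ± 54.6, SD, n = 16). Its α-cell levels ran from 0.575 CPM in OM2 through 4.58 CPM to 20.1 CPM in OF1 (5.83 ± 5.26, SD, n = 16), again without overlap between the types. The log2 fold change was 4.69 (SE 0.34, edgeR adjusted p = 1.8e-16). In δ-cells MAFA was at 0 in 5 of 11 monkeys, with a median of 1.81 CPM and a highest value of 19.8 CPM in OF1. MAFA was the only factor whose β-cell sums all lay above all δ-cell sums, a pattern that 0.326% of the genes showed, and β-cells exceeded δ-cells by 5.37 on the log2 scale (SE 0.50, edgeR adjusted p = 3.1e-12). PP-cells had a median of 7.82 CPM, with 0 CPM at the lowest and 32.9 CPM in OF1 at the highest, and lay below β-cells by a log2 fold change of 4.14 (SE 0.59, edgeR adjusted p = 4.5e-07).

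NKX6-1, the guardian of the β-cell programme, reached 91.8 CPM in OM2 at the lowest, 199 CPM at the median and 341 CPM in OF1 at the highest in β-cells (211 ± 79.4, SD, n = 16). In α-cells it was present in every monkey, from 34.4 CPM in OM2 through 52.4 CPM to 115 CPM in OF1 (54.1 ± 19.1, SD, n = 16). The ranges of the types touched, because OF1's α-cells exceeded OM2's β-cells, but within each of the 16 monkeys the β-cells were higher. The log2 fold change was 1.95 (SE 0.27, edgeR adjusted p = 5.4e-08), the smallest of the 5 factors. δ-cells had a median of 14.9 CPM with 0 CPM at the lowest, and their highest value, 303 CPM in OF1, came almost wholly from 1 cell that held 208 of 214 UMIs. δ-cells were lower than α-cells in 10 of 11 monkeys, with a log2 fold change of -1.38 (SE 0.37, edgeR adjusted p = 0.0044) that was not past the threshold without the monkey block (-0.33, edgeR adjusted p = 0.59). PP-cells lay between 14.4 CPM in OM2 and 48.4 CPM in OM4, with a median of 25.7 CPM. All 6 PP-cell sums were below every β-cell sum, a pattern shown by 1.77% of the genes.

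SIX2, a homeobox factor of maturing β-cells, ranged in β-cells from 5.64 CPM in OM2 through 12.2 CPM to 23.6 CPM in YF1 (12.4 ± 5.09, SD, n = 16). α-cells held 0.0806 CPM in OF3 at the lowest, 0.588 CPM at the median and 4.72 CPM in YM3 at the highest, where 74 of 84 UMIs came from 1 of 280 cells (1.08 ± 1.24, SD, n = 16), below every β-cell sum. The log2 fold change was 4.12 (SE 0.49, edgeR adjusted p = 1.9e-09). In δ-cells SIX2 spanned 0 CPM in YF2, a median of 4.85 CPM and 32.5 CPM in OF1 (10.2 ± 10.3, SD, n = 11). That range took in the whole range of β-cells only through OF1, where 22 UMIs came from 1 of 7 δ-cells. The next highest δ-cell sum was at 21.6 CPM, in OM2. PP-cells were at 0 in 3 of 6 monkeys and at most at 4.11 CPM.

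SIX3, the neighbour of SIX2, was counted 9 times in α-cells, in 5 cells, once in β-cells and not at all in δ- or PP-cells. Its 10 UMIs were too few for any test. No UMI among 112 δ-cells allows a share of up to 2.68% of cells with 1, so that an absence of SIX3 was not shown for δ-cells and still less for the 73 PP-cells without other markers, where the limit was 4.11%.

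PAX4, which acts in endocrine progenitors, was the most unevenly spread factor. In β-cells it was at 0 in 6 of 16 monkeys, with a median of 0.598 CPM and a highest value of 37.5 CPM in OF3 (4.82 ± 9.70, SD, n = 16). In OF3, 81 of the 105 PAX4 UMIs came from 1 of 28 β-cells, in OF1 54 of 65 came from 1 cell, and in OF4 114 UMIs were spread over 24 of 194 cells. α-cells reached at most 1.80 CPM, in OF4 (0.349 ± 0.521, SD, n = 16), and β-cells were higher than α-cells in 10 of 16 monkeys. The log2 fold change was 2.79 (SE 0.78, edgeR adjusted p = 0.0056). No PAX4 UMI was seen in PP-cells. Against the floor of 3 counts over their 6 sums, the pooled β-cell sums were at least 5.79-fold higher and the pooled δ-cell sums at least 7.06-fold higher. These bounds cover counting error only and no spread between monkeys. Within monkeys, β-cells were higher than PP-cells in 3 of 6. By edgeR the difference did not pass (log2 fold change 6.56, SE 3.40, edgeR adjusted p = 0.18). The bound for δ-cells was 1.59-fold without OM2, whose 24 of the 31 UMIs came from 1 cell, and that for β-cells 3.39-fold without OF2, which held the most PP-cells.

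**Figure D1:**
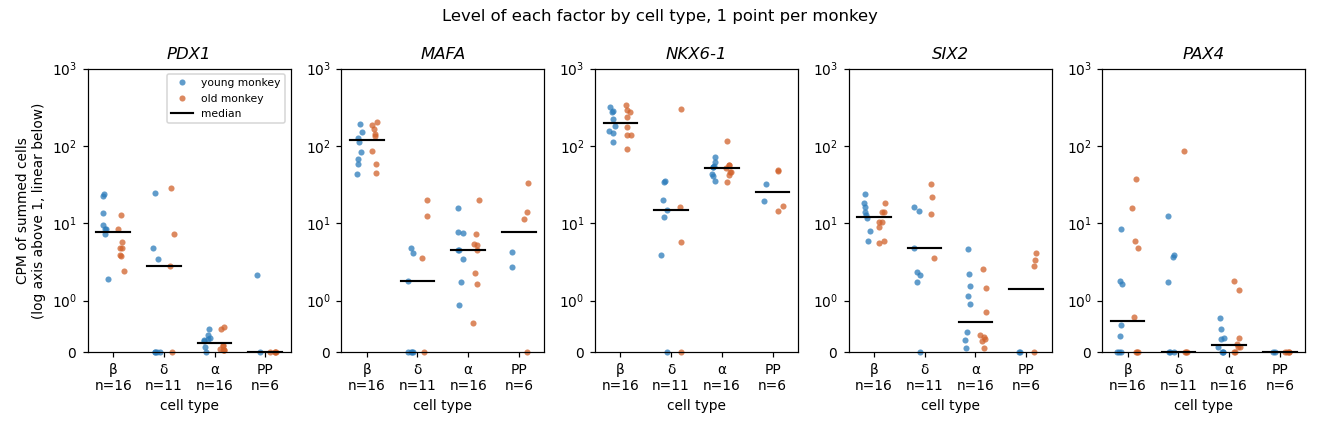
Level of 5 factors in summed cells of each type (vertical axis, CPM, logarithmic above 1 and linear below), 1 point per monkey, blue for young and orange for old monkeys, with the median as a black bar (β n = 16, δ n = 11, α n = 16, PP n = 6). MAFA separates β-cells from all other types (β median 119 CPM), NKX6-1 is present in α-cells of every monkey (median 52.4 CPM), and the δ-cell points of PDX1, SIX2 and PAX4 spread over the range of β-cells.

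Against δ-cells, 2 of the 5 factors were higher in β-cells, MAFA and NKX6-1, where 14.5% of all genes tested were higher and 5.26% lower (73.4% higher among those that passed, and 53.8% with RLE size factors). NKX6-1 exceeded δ-cells by a log2 fold change of 3.34 (SE 0.38, edgeR adjusted p = 9.1e-10) and was higher in 11 of 11 monkeys. PDX1 did not pass, with a log2 fold change of 0.94 (95% interval -0.52 to 2.39, edgeR adjusted p = 0.40). Nor did SIX2, at 1.00 (95% interval -0.14 to 2.14, edgeR adjusted p = 0.23), or PAX4, at -1.99 (95% interval -4.13 to 0.15, edgeR adjusted p = 0.20). These intervals hold differences of several-fold, so that equal levels were not shown.

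Against PP-cells, 4 of the 5 factors were higher in β-cells, where 10.6% of all genes were higher and 6.67% lower (61.3% higher among those that passed, and 46.1% with RLE size factors). PDX1 was represented in the 6 PP sums by 1 UMI, in YM4, and was at 0 in the other 5, while the single PP-cell of YF1, outside the sums, held 16. Its log2 fold change of 4.89 (SE 1.38, edgeR adjusted p = 0.0097) therefore rested on very few molecules. NKX6-1 exceeded PP-cells by 3.19 on the log2 scale (SE 0.48, edgeR adjusted p = 1.8e-06) and SIX2 by 2.96 (SE 0.88, edgeR adjusted p = 0.015). MAFA and NKX6-1 passed where the leading hormone had to hold at least 2 times the UMIs of the next. That rule was added after the data had been seen. Where at least 10 cells per monkey were required, only the PP-cell sum of OF2 was left, with 33 cells. The fitted log2 fold changes against that sum were 3.72 for MAFA, 2.09 for SIX2 and 10.2 for PDX1, of which it held 0 UMIs. Such a fit holds no spread between monkeys in PP-cells.

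δ-cells differed from α-cells in 4 of the 5 factors, 3 of them higher, where 23.2% of all genes tested passed in either direction and 4.36% were higher in δ-cells (18.8% of the genes that passed, and 32.1% with RLE size factors). PDX1, at 0 in 5 of 11 δ-cell sums, had a median of 2.83 CPM and a highest value of 29.0 CPM in OM4 (6.53 ± 10.3, SD, n = 11). The δ- and α-cell values overlapped at their lower ends, and δ-cells were higher in 6 of 11 monkeys, with a log2 fold change of 4.39 (SE 0.79, edgeR adjusted p = 3.5e-05). SIX2 was higher in δ-cells in 9 of 11 monkeys, with a log2 fold change of 3.12 (SE 0.58, edgeR adjusted p = 6.3e-05). PAX4 was at 0 in 6 of 11 δ-cell sums and reached 86.5 CPM in OM2, where 24 UMIs came from 1 of 5 cells, with a fitted log2 fold change of 4.78 (SE 1.16, edgeR adjusted p = 0.0023). MAFA did not pass (-0.68, SE 0.51, edgeR adjusted p = 0.35).

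These δ-cell values came from few cells. PDX1 was found in 7 of 112 δ-cells, each in a different monkey, SIX2 in 15 cells of 11 monkeys and PAX4 in 8 cells of 8 monkeys. The 7 cells with PDX1 had a median INS level of 12385 CPM and a median IAPP (amylin, co-secreted with insulin) level of 126 CPM, beside 5802 CPM and 27.2 CPM in the 105 others. Their median MAFA level was 0 CPM, and the part of insulin-bearing material in these values was not tested. SST exceeded the next hormone at least 2 times in 6 of the 7 cells and at least 4 times in 3. Where 4 times was required of every cell, 40 δ-cells remained, among them 3 of the 7 with PDX1 and 4 of the 8 with PAX4. Only 2 monkeys had at least 5 such cells and entered the fit. Their 16 δ-cells held 0 UMIs of PDX1 and 0 of PAX4, so that the cells with these factors fell out by the number of cells per monkey. The differences from α-cells then did not pass (edgeR adjusted p = 0.78 and 0.85), and sums at 0 give them no direction.

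PP-cells did not differ from α-cells in any of the 5 factors by edgeR, where 6.61% of all genes passed, 1.78% being higher and 4.82% lower in PP-cells. One factor, NKX6-1, had an unadjusted p under 0.05, with a log2 fold change of -1.23 (SE 0.46, edgeR adjusted p = 0.089) that passed without OM4 (-1.58, edgeR adjusted p = 0.045), and DESeq2 called 0. Between PP- and δ-cells, where 10.3% of all genes passed, 6.51% being higher and 3.83% lower in PP-cells, 0 of the 5 factors passed by edgeR, 3 had an unadjusted p under 0.05 and DESeq2 called 1. PDX1 was nearest among those with UMIs in both types, with a log2 fold change of -3.96 (SE 1.48, edgeR adjusted p = 0.076). It passed without YM4, which held the only PDX1 UMI of the 6 PP sums (edgeR adjusted p = 0.035). PAX4, at 0 in all 6 PP sums, passed without OF3 (edgeR adjusted p = 0.049) or without YM2 (edgeR adjusted p = 0.043).

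**Figure D2:**
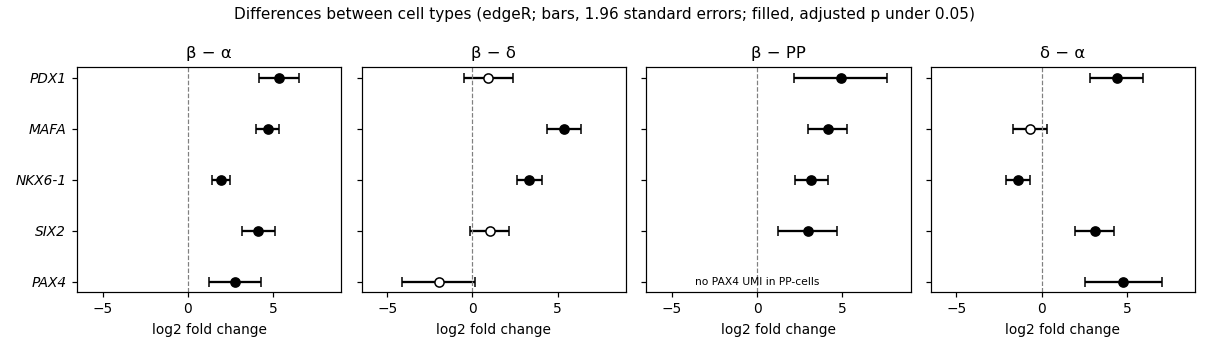
Fitted log2 fold changes (horizontal axis, edgeR) of 5 factors for β- against α-cells, β- against δ-cells, β- against PP-cells and δ- against α-cells. Bars span 95% intervals, filled points have an adjusted p under 0.05, and PAX4 is left out against PP-cells, which held none. All 5 points are filled for β- against α-cells, while PDX1, SIX2 and PAX4 are open for β- against δ-cells.

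The factors differed in how far α-cells fell below β-cells of the same animal. For NKX6-1 the α-cell mean was 25.6% of the β-cell mean, with a median over monkeys of 27.5% and a range of 15.2% to 40.4%. MAFA stood at 5.03% of the β-cell mean (median 3.56%), SIX2 at 8.69% (median 4.63%) and PDX1 at 2.30% (median 2.0%). The proportion for NKX6-1 was above that for PDX1 and MAFA in 16 of 16 monkeys and above that for SIX2 in 15 of 16.

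Other genes known from β-cells were set beside it. The authors named ERO1B, TMEM132B and RXRG as β-cell genes from these same cells, so that their low α-cell proportions are no independent measure. The α-cell mean was 11.3% of the β-cell mean for INS, 1.97% for IAPP and 1.45% for SLC2A2, the glucose transporter of β-cells. It was 10.3% for ERO1B, an oxidase of the endoplasmic reticulum, 8.40% for RXRG, a retinoid receptor, and 2.88% for TMEM132B. NKX6-1 stood above INS, IAPP, SLC2A2, TMEM132B and RXRG in 16 of 16 monkeys, above ERO1B in 15 of 16 and above G6PC2 in 10 of the 10 monkeys whose β-cells held it. The exception was ADCYAP1, a neuropeptide gene listed with the β-cell genes, at a mean of 0.368 CPM in β-cells and 0.153 CPM in α-cells (41.6%), which could be set as a proportion in 4 monkeys (median 121%) and stood below NKX6-1 in 1 of them. For every 100 IAPP UMIs there were 7.35 NKX6-1 UMIs in β-cells and 109 in α-cells, while MAFA gave 4.30 and 11, SIX2 0.447 and 1.99, PAX4 0.19 and 0.677 and PDX1 0.33 and 0.39. By this measure α-cells exceeded β-cells most for NKX6-1 among the factors, and the 2 PDX1 values, with 61 UMIs in α-cells, were close. INS also stood higher in α-cells, at 2227 in β- and 13904 in α-cells, whereas SLC2A2 was at 25.4 and 18.4. In the 4204 α-cells whose GCG was at least 4 times the next hormone, NKX6-1 remained at 51.4 ± 15.4 CPM (SD, n = 16), while MAFA was at 3.83 ± 2.40 CPM (SD, n = 16). These are levels, described without a test.

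**Figure D3:**
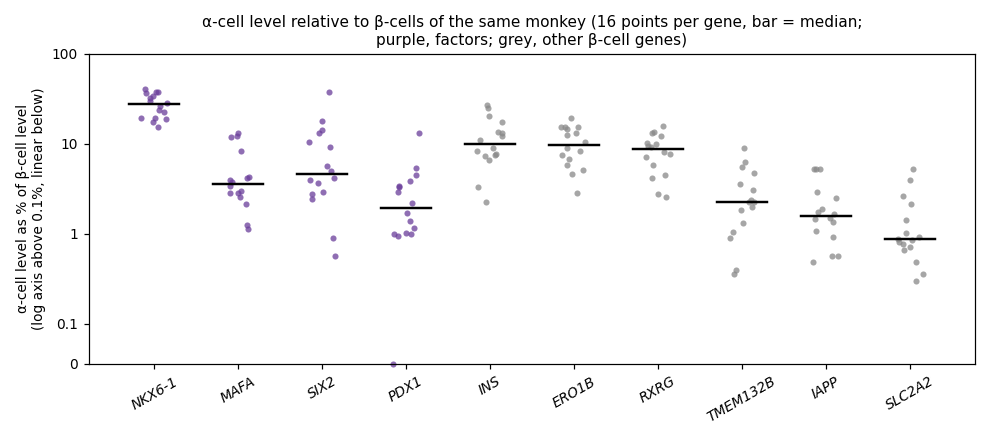
α-cell level as a percentage of the β-cell level of the same monkey (vertical axis, logarithmic above 0.1% and linear below), 1 point per monkey and the median as a bar, for 4 factors (purple) and 6 other β-cell genes (grey). Genes absent from β-cells of some monkeys (PAX4, G6PC2 and ADCYAP1) are not drawn. NKX6-1 has the highest proportion of the genes drawn (median 27.5%), and PDX1 (median 2.0%) lies in the range of TMEM132B, IAPP and SLC2A2.

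Counted by cell, 86.3% of 1208 β-cells had an NKX6-1 UMI, 78.2% a MAFA UMI, 22.6% a SIX2 UMI, 18.5% a PDX1 UMI and 4.55% a PAX4 UMI. The 63 cells with immune, stellate, endothelial or Schwann markers were left out of these shares, whereas cells with acinar or ductal markers stayed in. β-cells were sequenced more deeply than the others, with a median of 74430 UMIs beside 65102 in α-, 43776 in δ- and 45416 in PP-cells. After each cell was thinned to 10000 UMIs the β-cell shares were 62.4%, 48.6%, 8.74%, 6.32% and 2.08% in the same order. A PDX1 transcript was thus not detected in most β-cells at this depth, which does not show its absence.

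In α-cells the shares were 62.9% for NKX6-1 (28.5% thinned), 19.3% for MAFA (4.82% thinned), 4.09% for SIX2, 1.15% for PDX1 and 0.966% for PAX4. The 63 cells with immune, stellate, endothelial or Schwann markers served as the background, with a median of 41929 UMIs. NKX6-1 was found in 49.2% of them (24.1% thinned, exact 95% interval 13.9% to 37.2%), MAFA in 20.6% (10.3% thinned), SIX2 in 6.35%, PDX1 in 1.59% and PAX4 in 0, which allows up to 4.76%. The α-cell shares of MAFA, SIX2 and PDX1 were below these values and the thinned NKX6-1 share of α-cells lay within the interval of the background, so that expression in α-cells was not told apart from background by shares. The PDX1 share was 1 cell, the PP-cell of YF1 with 16 UMIs. That background was not free of endocrine RNA, since 51 of the 63 cells had GCG and 11 had INS as the highest hormone, at a median of 48089 CPM, and their NKX6-1 count was 17.4 for every 100 IAPP UMIs.

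PP-cells showed NKX6-1 in 63.0% (17.8% thinned) and MAFA in 31.5% (8.22% thinned), both thinned shares being below those of the background cells. δ-cells showed NKX6-1 in 36.6% (13.4% thinned) and MAFA in 10.7% (0.893% thinned), also below. SIX2 in 13.4% of δ-cells (5.36% thinned), PDX1 in 6.25% (4.46% thinned, exact 95% interval 1.47% to 10.1%) and PAX4 in 7.14% (6.25% thinned) stood above the background shares, with exact intervals that overlapped those of the background for all 3.

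**Figure D4:**
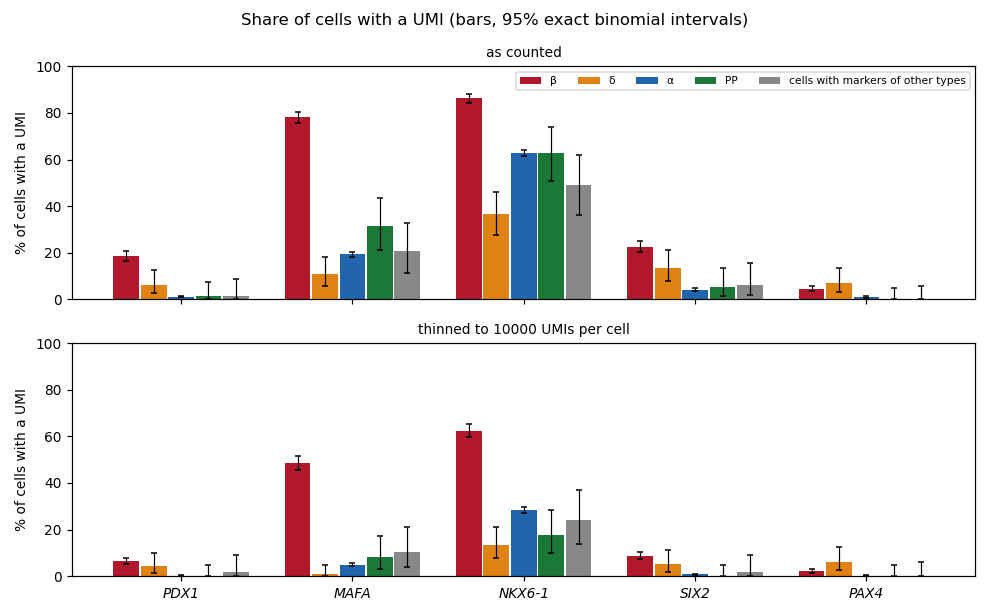
Share of cells with at least 1 UMI of each factor (vertical axis, %), as counted and after thinning to 10000 UMIs per cell, for β-, δ-, α- and PP-cells and for 63 cells with markers of other types, with exact 95% binomial intervals that cover counting error only. After thinning, MAFA and NKX6-1 were found in 48.6% and 62.4% of β-cells, and NKX6-1 in 28.5% of α-cells and 24.1% of the cells with other markers.

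Most β-cells carried more than 1 of the factors. At least 2 of the 5 were found in 78.1% of β-cells, at least 3 in 31.3%, all 5 in 4 cells and none in 4.55%, whereas 17.2% of α-cells had at least 2 and 30.7% had none. After thinning, at least 2 factors were found in 40.8% of β-cells and 2.33% of α-cells. MAFA and NKX6-1 were found together in 32.9% of thinned β-cells, beside 30.3% from the product of their separate shares. Cells with a factor were also deeper as counted, with a median of 79099 UMIs with MAFA and 57179 without. By age, at least 2 factors were found in 76.0% of young and 79.8% of old β-cells as counted and in 45.4% and 37.1% after thinning, so that the order turned with depth. These shares are pooled over monkeys and were not tested.

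No factor passed the threshold between old and young β-cells. The comparison asked whether the regulators of β-cell identity differ with age, and it was fitted by edgeR over the 16 β-cell sums with sex as a covariate. Of 10628 genes tested 0.047% passed, 0.0376% being higher and 0.00941% lower in old monkeys, 5 genes that are none of the factors. Among the 4 factors with enough UMIs to be tested, 0 passed by edgeR or by DESeq2, and 1, PDX1, had an unadjusted p under 0.05.

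PDX1 was at 1.91 CPM in YF3 at the lowest, 8.97 CPM at the median and 24.1 CPM in YF2 at the highest of the young monkeys (12 ± 7.71, SD, n = 8). The old monkeys ran from 2.42 CPM in OM4 through 4.78 CPM to 12.7 CPM in OF4 (5.81 ± 3.28, SD, n = 8). The groups overlapped, with YF3 below all old monkeys and OF4 above 5 of the young. The log2 fold change, old against young, was -1.07 (SE 0.49, edgeR unadjusted p = 0.041, adjusted p = 0.88). The share of β-cells with a PDX1 UMI was 17.7% ± 9.64 in young and 16.7% ± 8.34 in old monkeys (SD, n = 8 each), and β-cells with the transcript had a median of 3 UMIs in young and 2 in old animals.

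For MAFA and NKX6-1 the fitted age differences were smaller. MAFA had a median of 96.6 CPM in young β-cells (42.9 to 191) and 138 CPM in old ones (45.3 to 202), with means of 104 ± 50.7 and 128 ± 58.9 (SD, n = 8 each) and a log2 fold change of 0.26 (95% interval -0.33 to 0.86, edgeR adjusted p = 0.999). NKX6-1 had medians of 199 CPM in young β-cells (111 to 320) and 206 CPM in old ones (91.8 to 341), with a log2 fold change of -0.06 (95% interval -0.54 to 0.41, edgeR adjusted p = 0.999). Young and old values of both factors covered the same range.

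SIX2 had a median of 13.2 CPM in young β-cells (5.97 to 23.6) and 10.3 CPM in old ones (5.64 to 18.4), and the log2 fold change was -0.39 (95% interval -1.10 to 0.31, edgeR adjusted p = 0.99). PAX4 had too few UMIs to be tested with age. Its young values ran from 0 to 8.36 CPM with a median of 0.415 CPM and its old values from 0 to 37.5 CPM with a median of 2.71 CPM. The old mean of 8.05 ± 13 CPM (SD, n = 8) rested on OF3 and OM3.

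**Figure D5:**
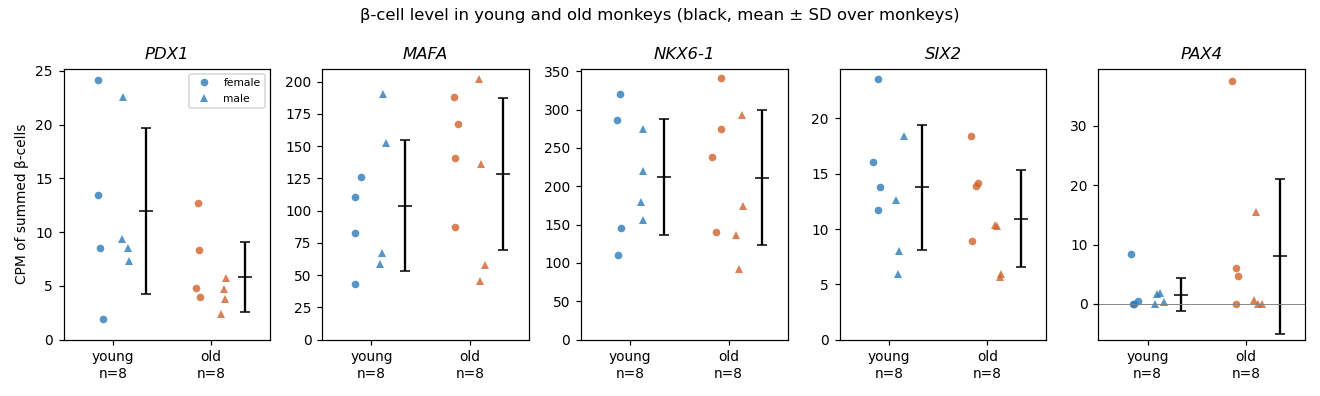
Level of 5 factors in β-cells of young (blue) and old (orange) monkeys (vertical axis, CPM), circles for females and triangles for males, with mean ± SD in black (n = 8 each). PDX1 is at a mean of 12 CPM in young and 5.81 in old animals with overlapping points, and the high PAX4 mean of old animals comes from few monkeys.

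In α-cells, too, 0 of the 3 factors tested passed with age by edgeR or by DESeq2, and 0 had an unadjusted p under 0.05. Of 12916 genes tested there, 0.0% passed by edgeR, 886 had an unadjusted p under 0.05 and DESeq2 called 24. NKX6-1 was at 52.2 ± 11.9 CPM in young and 56.1 ± 25.1 CPM in old α-cells (SD, n = 8 each), with a log2 fold change of 0.05 (95% interval -0.34 to 0.44). MAFA differed by -0.34 (95% interval -1.45 to 0.77) and SIX2 by -1.22 (95% interval -2.86 to 0.42), with SIX2 at 1.41 ± 1.51 CPM in young and 0.744 ± 0.856 CPM in old α-cells (SD, n = 8 each). In δ-cells no factor had enough UMIs for the age test and in PP-cells only NKX6-1 did, at 0.40 (SE 1.61, n = 2 young and 4 old).

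Sex did not separate the factors either. By edgeR 0 of 4 factors in β-cells and 0 of 3 in α-cells passed between males and females, 0 had an unadjusted p under 0.05 and DESeq2 called 0, with 0.0% of genes passing in each type. For the sex by age interaction, where 0.0% of genes passed in β- and 0.00707% in α-cells, 0 of 5 and 0 of 3 factors passed, and 0 had an unadjusted p under 0.05. The age difference of β-cells against that of α-cells, tested on 32 sums with monkey as a block, was past the threshold for 0 of 5 factors and 0.0% of genes.

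Genes that work with the factors were counted in β- against α-cells by the same fit. Of 17 listed targets and secretory genes other than INS, 14 were tested, 10 were higher and 1 was lower in β-cells, with a median log2 fold change of 3.37, where 8.66% of all genes were higher and 16.3% lower. SLC2A2 differed by 6.61 (SE 0.27, edgeR adjusted p = 5.4e-26), and G6PC2, the islet glucose-6-phosphatase, by 6.37 (SE 0.69, edgeR adjusted p = 4.6e-09). G6PC2 was at 0 in 6 of 16 β-cell sums, with a median of 1.24 CPM and a highest value of 78.7 CPM in OM4. RBP4, the plasma carrier of retinol, was the gene that was lower, at -0.62 (SE 0.22, edgeR adjusted p = 0.034). It also stands on the δ-cell marker list, with means of 7555 CPM in δ-cells, 27.4 CPM in α-cells and 14.5 CPM in β-cells. Of the factors shared by islet cells 22 were tested, 3 were higher and 8 lower in β-cells, with a median of -0.41, beside the same shares of all genes. GLIS3, a zinc finger factor of insulin transcription, was higher by 3.72 (SE 0.58, edgeR adjusted p = 1.7e-06) and RXRG by 3.68 (SE 0.29, edgeR adjusted p = 2.4e-15), whereas HNF4A, a hepatocyte nuclear factor, was at -1.58 (SE 0.36, edgeR adjusted p = 0.00067) and FOXA1, a forkhead factor, at -2.08 (SE 0.69, edgeR adjusted p = 0.020).

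Of the factors known from α-cells, 0 were higher and 6 of 7 tested were lower in β-cells, with a median of -3.66, where 16.3% of all genes were lower. Of 3 δ-cell factors 1 was lower, EHF at -2.68 (SE 0.30, edgeR adjusted p = 4.6e-10). Of 9 progenitor and dedifferentiation genes tested 5 were lower, led by MYC at -2.63 (SE 0.53, edgeR adjusted p = 0.00011) and ID1 at -2.18 (SE 0.40, edgeR adjusted p = 2.1e-05), with a median of -1.21. With age, 0 genes of these lists passed by edgeR in β- or in α-cells. In β-cells 3 of 13 targets and secretory genes, 0 of 19 shared factors, 0 of 5 α-cell factors, 1 of 1 δ-cell factors and 1 of 5 progenitor genes had an unadjusted p under 0.05, as did 5.54% of all genes tested.

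The genes whose levels followed each factor most closely over the 49 sums were named by Pearson correlation of log2(CPM + 1) among 8215 genes, sums of 1 monkey or type not being independent. For MAFA these were PFKFB2 (r = 0.93), SLC2A2 (0.91) and PPP1R1A (0.89), and for NKX6-1 RNF212B (0.86), PPP1R1A (0.85) and VEGFA (0.84). For PDX1 they were TMEM132B (0.77), WASL (0.75) and GAD2 (0.75), and for SIX2 SORL1 (0.80), GAD2 (0.78) and DIXDC1 (0.77). PAX4 had weaker partners in MEGF9 (0.56), ABCA10 (0.55) and C14orf132 (0.52), and SIX3 reached no more than 0.40.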

How the data were processed

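Single islet cells of 16 monkeys were sequenced in 64 libraries. The authors trimmed reads, aligned them with TopHat2 2.0.12 (CASAVA 1.8 is also named in the submitters' processing notes) to Macaca_fascicularis_5.0, took per-gene counts of uniquely mapped reads from htseq-count and collapsed identical UMIs. They deposited raw UMI counts per gene and cell of all picked cells. The labels call the protocol a modified SMART-seq2 and the methods a modified STRT protocol. MAFA stands among rows that follow the 95 spike-ins, which held 5.41% of UMIs and were left out of library sizes.

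Here, a cell entered with more than 800 genes and more than 10000 UMIs, without the study's filter on mapping rate. Type was the highest hormone, and counts were summed per monkey and type (at least 5 cells). Each monkey had 20719761 to 34053080 UMIs, and the sums used 206257 to 27439498. Tests were edgeR 4.0.16 quasi-likelihood fits (TMM, filterByExpr, Benjamini-Hochberg) in R 4.3.3, with monkey as a block between types and sex as covariate for age. Standard errors were taken from the fold change and its F statistic and 95% intervals from the normal distribution. The fits were tested on simulated data with known changes. Of changes of 1 on the log2 scale they recovered 30.3% between β- and α-cells, 34.0% with age in β-cells and 57.0% with age in α-cells. Of changes of 2 they recovered 81.8%, 82.6% and 88.8% in the same order, with 1, 8 and 4 false calls. An age difference of about 1 in β-cells would thus more often be missed than found. RLE size factors moved the median log2 fold change of all genes from 0.35 to 0.11 in β- against δ-cells, from 0.26 to 0.07 against PP-cells, from -0.47 to -0.26 in δ- against α-cells and from -0.37 to -0.21 in PP- against α-cells, where the share of higher genes among those past the threshold went from 27.0% to 43.9%. DESeq2 1.42.0 and the other alternatives are described in the closing section. No doublets were called, and cells above the 95th percentile of UMIs were left out in an alternative instead. Cells were counted as holding another type where at least 3 of its markers reached 100 CPM. Floors are 3 counts.

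All factors are named. From each further list up to 2 genes per direction with the largest fold change among those past the threshold, and for each factor the 3 best correlated genes (mean of at least 10 CPM), are named, except for genes of the α-cell list, whose single values are not reported here. The factors, lists and markers were chosen with earlier results of these data known. Sequences were not used here.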

Additional observations from a re-analysis of the deposited data

Results flagged for a closer look

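In 13 of 40 groups of monkeys 1 monkey lay far from the others, by the gap to its nearest neighbour as a share of the group's range. Chance gives this in about 1 of 20 groups where values are normally distributed, which sparse counts are not. Where only 1 monkey held any UMI, the flag followed from that alone, so that the number of flags cannot be set against this rate. PDX1 in δ-cells of young monkeys was 24.5 CPM in YF4 (6 UMIs in 5 cells), the nearest being 4.85 CPM, and PDX1 in PP-cells was 2.13 CPM in YM4 (1 UMI), the others being at 0.

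MAFA in α-cells was 15.6 CPM in YF1 among the young monkeys (nearest 7.68 CPM) and 20.1 CPM in OF1 among the old (nearest 7.28 CPM). NKX6-1 in α-cells was 115 CPM in OF1 (nearest 57.1 CPM), and in δ-cells of old monkeys it was 303 CPM in OF1 (nearest 16.1 CPM). OF1's α-cells also held 12959 CPM INS and 111 CPM IAPP, beside means over the 16 monkeys of 7262 and 53.3 CPM, and the part of this in its MAFA and NKX6-1 levels was not tested. SIX2 in α-cells was 4.72 CPM in YM3 (74 of 84 UMIs from 1 of 280 cells, nearest 2.19 CPM).

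SIX3 was 0.192 CPM in α-cells of YF4 (5 UMIs, nearest 0.0569 CPM) and 0.0730 CPM in β-cells of OF1 (1 UMI, the others at 0). PAX4 in β-cells was 8.36 CPM in YF4 among the young monkeys (nearest 1.81 CPM) and 37.5 CPM in OF3 among the old (nearest 15.6 CPM). In δ-cells PAX4 was 12.3 CPM in YF4 (3 UMIs, nearest 3.93 CPM) and 86.5 CPM in OM2 (24 UMIs, the others at 0).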

How the results depend on the processing

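For 58 pairs of factor and comparison, 14 alternatives gave 648 values and leaving out each monkey in turn 918. Under the alternatives 610 values kept their direction and side of the threshold, 8 fell short of it, 5 newly passed and 25 changed sign. Without 1 monkey these numbers were 886, 0, 4 and 28. The factors past the threshold then numbered 5 in β- against α-cells, 2 against δ-cells, 4 against PP-cells, 4 in δ- against α-cells, 0 to 1 in PP- against α- and δ-cells and 0 for age and sex. The 6 PP sums held 1 PDX1 UMI and 0 of PAX4 (cause not tested).

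The 4 factors past the threshold against PP-cells became 2 where the highest hormone had at least 2 times the second (chosen after seeing the data) and 1 with at least 10 cells per monkey. The 4 for δ- against α-cells became 2 with a margin of 4 times. For PP- against α-cells NKX6-1 passed in thinned cells (-2.04, edgeR adjusted p = 0.0075) and with the margin of 2 times (-1.47, edgeR adjusted p = 0.029), making 1 in place of 0, and for PP- against δ-cells 1 passed by DESeq2 and without the replicate block. PAX4 in β- against α-cells fell to an edgeR adjusted p of 0.053 with the margin of 4 times and PAX4 in δ- against α-cells to 0.063 with at least 10 cells, while MAFA in δ- against α-cells passed in thinned cells (-2.85, edgeR adjusted p = 0.030). The cause was not tested.

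With the margin of 4 times signs changed for SIX2 (-0.27) and PAX4 (6.0) in β- against δ-cells, for PDX1 (-4.07) and PAX4 (-3.39) in δ- against α-cells, where δ-cells held 0 UMIs of both, and for NKX6-1 with age in β-cells (0.054) and in β- against α-cells (0.25). In thinned cells this held for PDX1 (-1.95), MAFA (-0.061) and SIX2 (-3.35) in PP- against α-cells, NKX6-1 in PP- against δ-cells (-0.58), NKX6-1 with age in β-cells (0.11) and in β- against α-cells (0.056), MAFA with age in α-cells (0.027) and MAFA with sex in β-cells (0.074). It held with at least 10 cells for PDX1 (-4.84) and PAX4 (1.43) in PP- against α-cells, the latter also by DESeq2 (1.98), and without the replicate block for NKX6-1 in PP- against δ-cells (-0.49). Without the deepest cells it held for MAFA with sex (0.038) and, for the age difference in β- against α-cells, NKX6-1 (0.028) and PAX4 (-0.16). With the margin of 2 times it held for SIX2 with age in β-cells (0.34), MAFA with sex in β-cells (0.17), MAFA with age in α-cells (0.25) and NKX6-1 with age in PP-cells (-0.63). Fits on sums at 0 give no direction.

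Leaving out 1 monkey turned no difference past the threshold. Those crossing 0 were PDX1 (-4.39 to 1.24) in PP- against α-cells, negative without YM4, NKX6-1 in PP- against δ-cells (-0.36 to 1.04) and, with age, NKX6-1 in β-cells (-0.20 to 0.051), α-cells (-0.14 to 0.14) and PP-cells (-0.67 to 0.98), PDX1 in β- against α-cells (-0.64 to 0.017), MAFA with sex in β-cells (-0.22 to 0.070), NKX6-1 with sex in α-cells (-0.25 to 0.032), and for the sex by age interaction in β-cells SIX2 (-0.46 to 0.11) and PAX4 (-3.88 to 1.62).

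RLE size factors changed no call of a factor. Between old and young β-cells 5 genes passed, 39 by DESeq2, 21 without the filter on low counts and 1 each in thinned cells and with the margin of 4 times. In α-cells 0 passed with age and 0 with sex, and 24 and 26 by DESeq2. By DESeq2 12 passed with sex in β-cells (reported fit 0), 8 for the interaction in α-cells (1) and 10 for age in β- against α-cells (0). With at least 10 cells 5135 genes passed between β- and α-cells (3222). Comparisons with PP-cells then held only the PP-cell sum of OF2, so that their gene counts are not given. By DESeq2 1359 passed between PP- and α-cells (852) and 2103 between PP- and δ-cells (1334), where 2269 passed without the replicate block and 685 in thinned cells. With the margin of 4 times 1214 passed between β- and δ-cells (2549) and 1220 between δ- and α-cells (2999). Without the filter on low counts 23 passed with sex in β-cells, 3 with age in δ-cells and 9 in PP-cells (0 each).

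With the monkey number as a replicate block beside sex, 0 factors passed with age and 5 genes did in β-cells. Same-numbered monkeys are different animals, and their β-cell deviations correlated by a median of -0.02 (-0.17 to 0.12 over 24 pairs), beside 0.0038 over 72 other pairs. The margin of 4 times could not be fitted for comparisons with PP-cells or for age in δ- and PP-cells, nor at least 10 cells for age in PP-cells, which could also not be fitted without some of the monkeys. Thinning left 17 values untested.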

Other observations

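Over the 16 β-cell sums, 15 relations among PDX1, MAFA, NKX6-1, SIX2, PAX4 and GCG were computed. MAFA and NKX6-1 varied together with r = 0.55 (permutation p = 0.031, adjusted p = 0.30) and rho = 0.52 (permutation p = 0.041), and r was 0.67 without the 2 monkeys farthest from the median, but the relation did not pass the correction. PAX4 was lower where GCG was higher by rank (rho = -0.71, permutation p = 0.0029, adjusted p = 0.044) but not by Pearson's r (-0.45, adjusted p = 0.30; -0.44 without the 2 monkeys farthest from the median), and 6 of the 16 PAX4 values were 0.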
